A study of Homo sapiens with 8 samples.

Results

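RNA of mitotic spindle preparations was compared with RNA of whole-cell extracts (input) in wild-type (WT) HCT116 cells, an established human colorectal carcinoma line. There were 2 spindle and 2 input libraries. The genes described are those with an FPKM (reads per kilobase of gene, scaled between libraries) of at least 1 in at least 2 of these 4 libraries. They were 15904 of the 17788 genes listed for the series, which also holds 4 libraries of STAU1-knockout cells made with CRISPR. The WT cells carried no engineered change according to the labels. Cells of both groups had been held in late G2 for 16 h with RO-3306, an inhibitor of the kinase CDK1. They were then released into 100 µM taxol, which stabilises microtubules, for 15 min, and mitotic cells were shaken off. Spindles were spun through a glycerol cushion after detergent lysis, and the pellet was extracted once more in hypotonic buffer. Input was the whole-cell extract. Stranded libraries were made from total RNA depleted of ribosomal RNA, so that noncoding as well as messenger RNA was read. The series' design text calls the replicates biological, but does not say that they came from separate cultures, so p-values measure the spread between these libraries, moderated by a prior spread that limma fits over all genes along the expression level. Of the 202 genes considered by name, 126 follow the naming rule given with the processing and 76 were chosen after their values were seen, most of them as counterparts within a gene list.

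The mitotic spindle is the array of microtubules that separates chromosomes, and in human cells it forms after the nuclear envelope has broken down. Messenger RNAs, ribosomes and noncoding RNAs have been found with spindles and centrosomes, and some of these messages encode spindle or centrosome proteins. A pelleted spindle can also bring down chromosomes, remnants of nuclear bodies and large particles, so the preparation is a fraction of the cell and not only microtubules.

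Reads on the listed genes numbered 9068100 and 10047197 in the input libraries, and 5209596 and 6600374 in the spindle libraries. Replicates were closer in input than in spindles. The SD of the replicate difference on the log2(FPKM + 1) scale was 0.372 in input and 0.646 in spindles over the 15904 genes. For 2249 genes (14.1%) the 2 spindle libraries lay on opposite sides of the input mean, so each spindle library is given by itself throughout. Some epithelial genes expected of this line were present, among them EPCAM (FPKM of 88.6 and 101 in input, 22.1 and 55.7 in spindle 1 and spindle 2) and the keratin gene KRT8 (422 and 444 in input, 86.2 and 311 in spindles). Further epithelial markers that had been planned were not among the genes listed for the series. Of the 9 epithelial markers listed, 3 fell in spindles and none rose, with medians of -2.05 in spindle 1 and -0.64 in spindle 2. The share that fell (33.3%) was near the 34.6% of all coding genes. Markers of immune cells were not among the genes analysed here. Of the fibroblast genes, ACTA2 lay between 0.994 and 1.34 in all 4 libraries, and COL1A1 had 0.965 and 0.813 in input and 4.93 and 6.69 in spindles. COL1A1 thus passed the filter only through the spindle libraries.

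Of the 15904 genes, 3370 (21.2%) had a higher level in spindles and 4359 (27.4%) a lower one (limma on log2(FPKM + 1), adjusted p under 0.05), which is 48.6% in either direction. Both spindle libraries lay above both inputs for 37.1% of genes and below both for 42.6%. Of the higher calls, 1288 were among 1706 genes that passed the filter only through the spindle libraries. Of the lower calls, 289 were among 446 genes that passed it only through the inputs. Among the 13752 genes with an FPKM of at least 1 in libraries of both groups, 15.1% were higher and 29.6% lower. Calls and their directions are relative to the authors' scaling. The median change over all tested genes was -0.07, and it was 0.28 when the upper quartiles of libraries were matched and 0.70 when their coding sums were matched. These settings gave 5120 higher and 2912 lower genes, and 6675 higher and 1528 lower genes. Since FPKM is a relative measure, a loss of one RNA and a gain of the others in the pellet cannot be told apart. When either input library was left out no gene passed (0 calls by limma; 5322 genes without input 1 and 5596 without input 2 had an unadjusted p under 0.05).

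The make-up of the 2 fractions differed by RNA class. Coding genes held 45.2% and 44.7% of summed FPKM in the inputs, 29.8% in spindle 1 and 22.0% in spindle 2. The class of miscellaneous RNAs, which holds 7SK and some signal recognition particle RNAs, held 23.7% in each input, and 5.84% and 5.79% in the spindles. Genes annotated as miRNAs went the other way, with 1.04% and 0.995% of input, 28.1% of spindle 1 and 33.1% of spindle 2. Ribosomal RNA left after depletion held 0.683% and 1.00% in input, 6.18% in spindle 1 and 22.7% in spindle 2. Of the 12 tested genes of this class 2 were higher and 2 lower, against 21.2% and 27.4% of all genes. Almost all of the class share in spindles came from the 28S gene RNA28S5, with 6.12% and 22.5%. The 18S gene held 0.0756% and 0.285% of input, and 0.0411% and 0.143% of spindles. With 2 libraries against 2, an exact permutation test cannot give a p below 0.33, so these shares are given as values. By reads in place of FPKM, coding genes held 88.1% and 87.7% of input, 72.8% of spindle 1 and 47.0% of spindle 2. The corresponding shares of ribosomal RNA were 1.51%, 1.93%, 13.6% and 46.3%. Spindle 2 therefore had the largest share of ribosomal RNA and the smallest share of coding RNA by both measures.

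**Figure D1:**
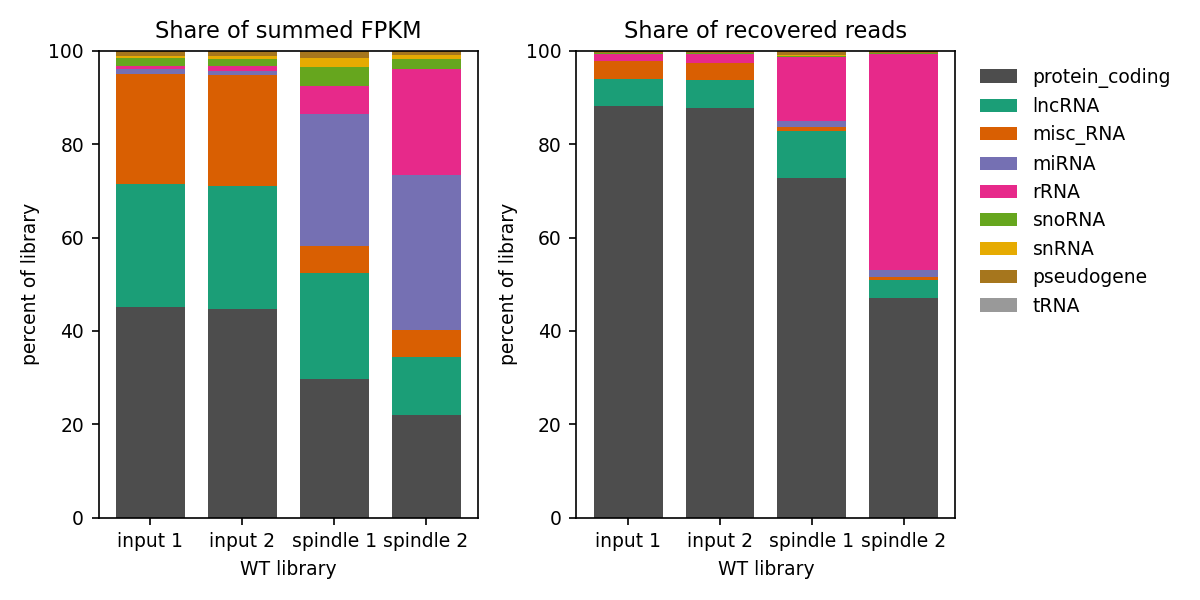
Share of summed FPKM (left) and of recovered reads (right) in percent by gene class, with 1 stacked bar for each of the 4 WT libraries. The inputs look alike, while the miRNA class reaches 28.1% and 33.1% of summed FPKM in spindles but only 1.42% and 1.52% of reads, and ribosomal RNA takes 46.3% of the reads of spindle 2.

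In the spindle libraries almost all of the FPKM of the miRNA class came from 2 genes on chromosome 21, MIR3687-2 and MIR3648-2. Both hairpins lie in the external transcribed spacer of the ribosomal RNA precursor, the part that is cut away while ribosomes are made in the nucleolus. MIR3687-2 had an FPKM of 2164 and 1748 in input, 46843 in spindle 1 and 111250 in spindle 2. MIR3648-2 had 1931 and 1709 in input, 40620 in spindle 1 and 90176 in spindle 2. Both spindle libraries lay far above both inputs for each gene, yet neither gene passed the test (log2 changes of 5.21 and 5.06, SE 1.89 and 1.77, limma adjusted p = 0.0793 and 0.0735). The SEs at these levels are set largely by the trended prior: without the trend they were 0.462 and 0.423, and both genes passed (limma adjusted p = 0.00660 for each). The mature miRNA of MIR3648-2, with its seed (bases 2 to 8) in capitals, shows which stretch of the spacer this hairpin holds (RefSeq, GRCh38.p14):
hsa-miR-3648: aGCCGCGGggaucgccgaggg
The libraries were made from total RNA and not from size-selected small RNA, so that reads here need not be of the mature form. The 28S gene RNA28S5, which encodes the large ribosomal RNA of the mature ribosome, had 2934 and 3289 in input, 19824 in spindle 1 and 139010 in spindle 2 (log2 change 4.08, SE 2.12, limma adjusted p = 0.174, or SE 0.969 and 0.0301 without the trend). The other 699 listed miRNA genes together held 0.259% and 0.301% of summed FPKM in input, and 1.11% and 0.448% in spindles.

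As a class, 149 of 480 tested miRNA genes were higher and 33 lower, against the 21.2% and 27.4% of all genes. The depth behind these calls was small. Among tested miRNA genes the median was 6 reads summed over the 4 libraries, 343 of 480 (71.5%) had fewer than 10 reads, and 145 of the 149 higher calls had fewer than 50. In addition, 74 of the 480 passed the filter only through the spindle libraries, and 72 of those were called higher. MIR647 (8 and 6 reads in spindle 1 and spindle 2), MIR3176 (8 and 10 reads) and MIR4768 (5 and 3 reads) were listed at 0 in both inputs. MIR3153 went the other way, with an FPKM of 23.9 and 27.1 in input and 1.73 and 2.82 in spindles, which is 17 and 22 reads against 1 and 1 (log2 change -3.03, limma adjusted p = 0.00551). These 4 genes lie in different parts of the genome, and their mature sequences do not share a seed:
hsa-miR-647: gUGGCUGCacucacuuccuuc
hsa-miR-3176: aCUGGCCUgggacuaccgg
hsa-miR-4768-5p: aUUCUCUCuggaucccauggau
hsa-miR-3153: gGGGAAAGcgaguagggacauuu
At these read numbers a gain or loss of a few molecules sets the FPKM of a hairpin, which is short. Of the 13 tested miRNA genes with at least 50 reads, 4 were higher and 2 lower.

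Small nuclear and small nucleolar RNAs had more higher than lower calls, again with shallow counts, while of all tested genes 21.2% were higher and 27.4% lower. snRNA genes, the loci of the spliceosomal RNAs and their many copies, had 88 of 263 higher and 5 lower, with medians of 1.26 in spindle 1 and 0.82 in spindle 2. Of these genes 54 passed the filter only through the spindle libraries, with 50 called higher. Of the 205 with an FPKM of at least 1 in libraries of both groups 38 (18.5%) were higher and 2 (0.976%) lower. Among all 13752 such genes these shares were 15.1% and 29.6%, so the higher share of snRNA genes was near that of all genes. In 23 snRNA genes with at least 50 reads, 3 were higher and none lower (limma; these calls also stand in the counts above). RNU6-1263P, a copy of the U6 gene, was listed at 0 in both inputs and had an FPKM of 13.4 and 10.9 in spindles, from 10 and 5 reads. Reads on such near-identical copies can be split between them, so that single loci are uncertain. snoRNA genes, whose products guide the modification of ribosomal RNA, had 80 of 289 higher and 17 lower, and 33 of the 80 were among 39 genes that passed the filter only through the spindle libraries. Of the 244 found in both groups 47 (19.3%) were higher and 11 (4.51%) lower, against the same 15.1% and 29.6%. With at least 50 reads, 23 of 82 were higher and 4 lower, and the medians were 0.47 and 0.52. SNORA49 had an FPKM of 27.2 and 29.0 in input, and 154 and 145 in spindles (log2 change 2.37, SE 0.22, limma adjusted p = 0.00566). SNORD3A, the U3 RNA that is needed for cutting the ribosomal precursor, had 3250 and 2835 in input, and 14315 and 11605 in spindles. Both spindle libraries of SNORD3A stood above both inputs, but the test did not pass (log2 change 2.09, SE 1.36, limma adjusted p = 0.256), while without the trended prior it did (SE 0.193, limma adjusted p = 0.00664).

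The abundant structured RNAs of the cytoplasm and nucleoplasm lay on the other side. RNY1, RNY4 and RNY5 are Y RNAs, small partners of the Ro protein. RNY1 had an FPKM of 211 and 205 in input, and 3.77 and 4.10 in spindles (log2 change -5.40, SE 0.18, limma adjusted p = 0.00551), while RNY4 and RNY5 were listed at 0 in both spindle libraries. RN7SL1, the RNA of the signal recognition particle that directs ribosomes to the endoplasmic reticulum, had 78476 and 75558 in input, and 7705 and 18144 in spindles. RN7SK, which holds the elongation factor P-TEFb inactive, had 61144 and 53706 in input, and 6948 and 6140 in spindles. RPPH1, the RNA of the tRNA-processing enzyme RNase P, had 21391 and 21972 in input, and 1505 and 2305 in spindles. For these 3 genes both spindle libraries lay below both inputs, but limma gave adjusted p-values of 0.477, 0.313 and 0.0939, with SEs of 2.92, 2.33 and 1.38. Without the trended prior all 3 passed, with SEs of 0.446, 0.173 and 0.257 (limma adjusted p = 0.0136, 0.00660 and 0.00660). RMRP, the related RNA of RNase MRP, which acts on the ribosomal precursor in the nucleolus, did not lie on that side: it had 26574 and 23218 in input, and 35704 and 33929 in spindles (log2 change 0.49, limma adjusted p = 0.897, or 0.0703 without the trend). In the authors' deposited table the adjusted p of all 8 abundant RNAs named here and above, from MIR3687-2 to RMRP, was under 0.05. Over the list of these RNAs, 3 of 12 fell and none rose, a share near the 27.4% of all genes, and 11 of 12 had both spindle libraries below both inputs, against 42.6% of all genes.

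By number of genes, long noncoding RNAs were higher in spindles more often than genes at large. The share of the class in summed FPKM did not rise, with 26.2% and 26.3% in input, and 22.6% and 12.5% in spindles. By reads it was 5.93% and 6.01%, then 10.0% and 3.82%. RN7SL1, RPPH1 and RMRP, described above, are annotated in this class. Of 1975 tested genes of the class, 783 rose and 141 fell. Their medians were 0.76 in spindle 1 and 0.60 in spindle 2, or 0.75 above the median of all genes. In this class 603 genes passed the filter only through the spindle libraries, and 456 of them were called higher. Among the 1284 that had an FPKM of at least 1 in libraries of both groups, 327 (25.5%) were higher and 93 (7.24%) lower, against 15.1% and 29.6% of all 13752 such genes. Length made little difference, with 40.8% higher in the shortest quintile and 43.8% in the longest. NEAT1, the scaffold of nuclear paraspeckles, showed the largest rise among the noncoding genes that passed the test, with a mean FPKM of at least 5 and no overlap of the groups. It had 10.6 and 11.9 in input, 481 in spindle 1 and 261 in spindle 2 (log2 change 4.86, SE 0.37, limma adjusted p = 0.00551). MALAT1, a nuclear speckle RNA, had 327 and 360 in input, and 2362 and 1287 in spindles (log2 change 2.34, SE 0.60, limma adjusted p = 0.0351). MIR663AHG rose from 18.8 and 14.9 to 296 and 368, and the antisense gene GAS6-AS1 from 2.99 and 2.61 to 26.3 and 29.6. For NEAT1 and MALAT1 spindle 1 was the higher library, and for MIR663AHG and GAS6-AS1 it was spindle 2.

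Of 12 long noncoding RNAs listed as held in the nucleus, 9 rose and 1 fell. KCNQ1OT1, an imprinted antisense RNA, went from 1.15 and 1.11 to 4.59 and 4.34. FTX, a regulator of the X-inactivation centre, went from 1.39 and 2.26 to 10.7 and 5.92, and TUG1 from 10.1 and 10.99 to 21.1 and 16.8. OIP5-AS1 was the member of the list that fell, from 9.08 and 9.80 to 5.29 and 3.24. Where each member sits in the cell was not measured here. Long noncoding hosts of snoRNAs, whose spliced RNA leaves the nucleus, had none of 22 higher and 8 lower as a list (median -0.34, but 0.09 at matched upper quartiles and 0.61 at matched coding sums). SNHG16 fell from 140 and 136 to 26.9 and 29.9, and SNHG6 from 88.5 and 93.9 to 21.0 and 20.0. The difference between these 2 lists was not tested.

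Pseudogenes split by abundance and by parent. Of 1207 tested, 536 rose and 212 fell, but 394 had passed the filter only through the spindle libraries and 322 of those were called higher. Among the 177 tested pseudogenes with a mean FPKM of at least 5, in a fit of such genes alone, 68 were higher and 83 lower, with a median of -0.83. Of 115 ribosomal protein pseudogenes, 37 (32.2%) rose and 47 (40.9%) fell, and of the other 1092, 499 (45.7%) rose and 165 (15.1%) fell. RPL9P7 fell from 56.3 and 42.6 to 1.63 and 1.32, RPL12P4 from 30.0 and 19.6 to 0 and 0.872, and RPS23P8 from 40.2 and 32.1 to 1.72 and 0.701. In contrast, RPL9P16 rose from 0.407 and 0.356 to 5.01 and 5.31, and it had passed the filter only through the spindle libraries. These copies closely resemble their parents, whose reads may be placed on them. SNX18P3 rose from 2.07 and 1.81 to 37.5 and 24.1.

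Coding genes were lower more often than higher in spindles, with 1626 (14.3%) of 11368 higher and 3930 (34.6%) lower. Of the higher calls, 295 were among 474 coding genes that passed the filter only through the spindle libraries. Among the 10692 coding genes with an FPKM of at least 1 in libraries of both groups, 12.4% were higher and 35.7% lower. The median of all 11368 coding genes was -0.36 in spindle 1 and -0.26 in spindle 2. The sign of the coding median turned under the other scalings (0.07 at matched upper quartiles and 0.51 at matched coding sums), while it stayed below the median of all genes in each, by 0.24, 0.21 and 0.19. The change followed the length of the coding sequence. In the quintile of genes with the shortest coding sequence (45 to 753 nt) 6.02% were higher and 65.0% lower, and in the longest quintile (2547 to 26772 nt) 33.0% were higher and 6.77% lower. Medians over the 5 quintiles, from short to long, were -1.26, -0.74, -0.36, -0.16 and 0.32 in spindle 1, and -1.07, -0.60, -0.28, -0.02 and 0.44 in spindle 2. The order was the same in each spindle library. Of 493 genes with more than 5000 nt of coding sequence 251 rose and 2 fell, whereas of 982 genes under 500 nt 76 rose and 680 fell.

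**Figure D2:**
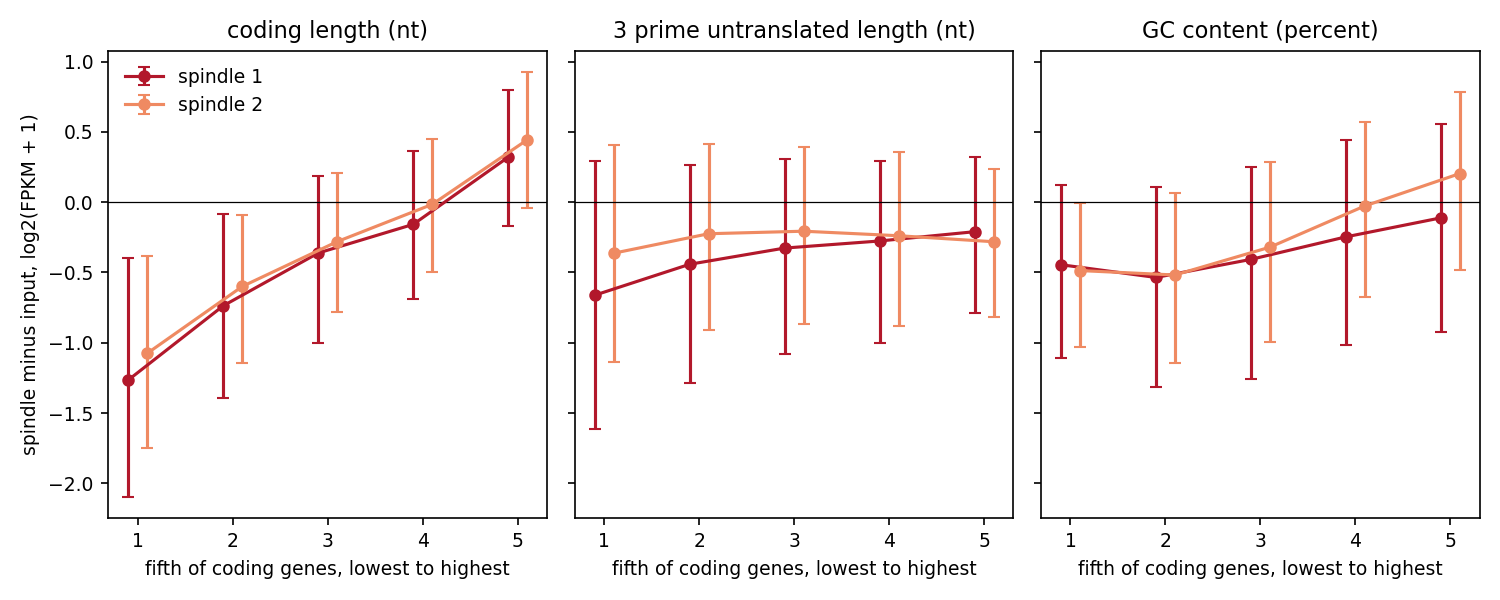
Change in each spindle library (log2(FPKM + 1), spindle minus the mean of inputs) for coding genes split into quintiles by coding length, 3′ untranslated length and GC content. Points are medians and bars span the quartiles, and the medians climb from -1.26 to 0.32 (spindle 1) and from -1.07 to 0.44 (spindle 2) with coding length.

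The relation was with the coding sequence more than with the untranslated parts. Across the 11368 coding genes, Spearman's rho of the change with coding length was 0.47 in spindle 1 and 0.54 in spindle 2. It was 0.39 and 0.34 with the length of the longest annotated transcript. With the length of the 3′ untranslated region it was 0.13 and 0.02 (11286 genes), and with the 5′ untranslated region 0.06 in both libraries (11229 genes). Genes share libraries and are not independent, so these values describe the libraries. Within the quintile of longest 3′ untranslated regions the medians still rose with coding length, from -0.83 to 0.27 in spindle 1 and from -0.94 to 0.24 in spindle 2. GC content was also related, with 7.65% of genes higher in the lowest quintile and 23.2% in the highest. At the highest GC and the longest coding sequence together, 58.9% of 353 genes were higher and 0.283% lower. At the lowest GC and the shortest coding sequence, 5.26% of 304 were higher and 67.8% lower.

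Input level was related to the change as well, with Spearman's rho of -0.69 in spindle 1 and -0.54 in spindle 2. In the quintile of genes with the highest input FPKM 0.660% were higher and 66.1% lower, and in the lowest 34.0% were higher and 3.43% lower. Input values enter the change itself with the opposite sign, and in the lowest quintile some genes passed the filter only through spindles, so that part of this relation is built in. Within the highest quintile of input level the medians still rose with coding length, from -2.39 to -0.61 in spindle 1 and from -1.86 to -0.04 in spindle 2. In the middle quintile of input level they ran from -1.03 to 0.29 and from -0.95 to 0.40. Which of length, level and GC moves the values was not tested.

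Of the 12 coding genes with the largest rises, among those that passed with a mean FPKM of at least 5 and groups that did not overlap, 10 lay in the longest quintile of coding length. EPPK1 encodes epiplakin, a giant linker of intermediate filaments with a coding sequence of 7263 nt. It had an FPKM of 4.69 and 5.80 in input, and 31.8 and 43.2 in spindles (log2 change 2.61, SE 0.23, limma adjusted p = 0.00551). KDM6B, a histone demethylase, rose from 1.58 and 1.57 to 11.5 and 17.9. KMT2D, a histone methyltransferase with 16614 nt of coding sequence, rose from 4.20 and 4.04 to 22.6 and 34.8. SRRM2, the scaffold of nuclear speckles, rose from 18.2 and 18.5 to 90.4 and 126. LAMA5, a laminin chain of basement membranes, rose from 11.2 and 9.44 to 54.5 and 67.4, and ATN1, a transcriptional corepressor, from 4.90 and 4.01 to 22.0 and 30.0. In these 6 genes both spindle libraries lay above both inputs, with spindle 2 the higher. BTBD19 (876 nt) and PABPC1L (1845 nt) rose as much with shorter coding sequences, from 2.13 and 1.69 to 16.4 and 15.3, and from 3.85 and 3.69 to 28.0 and 19.8. LENG8, which is linked to mRNA export, rose from 11.9 and 11.4 to 63.1 and 59.0.

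By the same rule, the coding genes with the largest falls were short and mostly of mitochondrial or ribosomal proteins. COX8A, a subunit of cytochrome c oxidase of 210 nt, had an FPKM of 297 and 255 in input, and 8.97 and 10.5 in spindles (log2 change -4.69, SE 0.23, limma adjusted p = 0.00551). ROMO1, a mitochondrial membrane protein, fell from 73.5 and 68.3 to 3.24 and 1.65, and MIF, a cytokine, from 173 and 158 to 5.38 and 9.18. RPL39 fell from 243 and 224 to 12.3 and 16.1, and RPS21 from 418 and 370 to 16.7 and 36.0. HIST1H4C, a histone H4 gene of 312 nt, fell from 290 and 197 to 10.3 and 12.3. All of these stood far below both inputs in each spindle library.

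**Figure D3:**
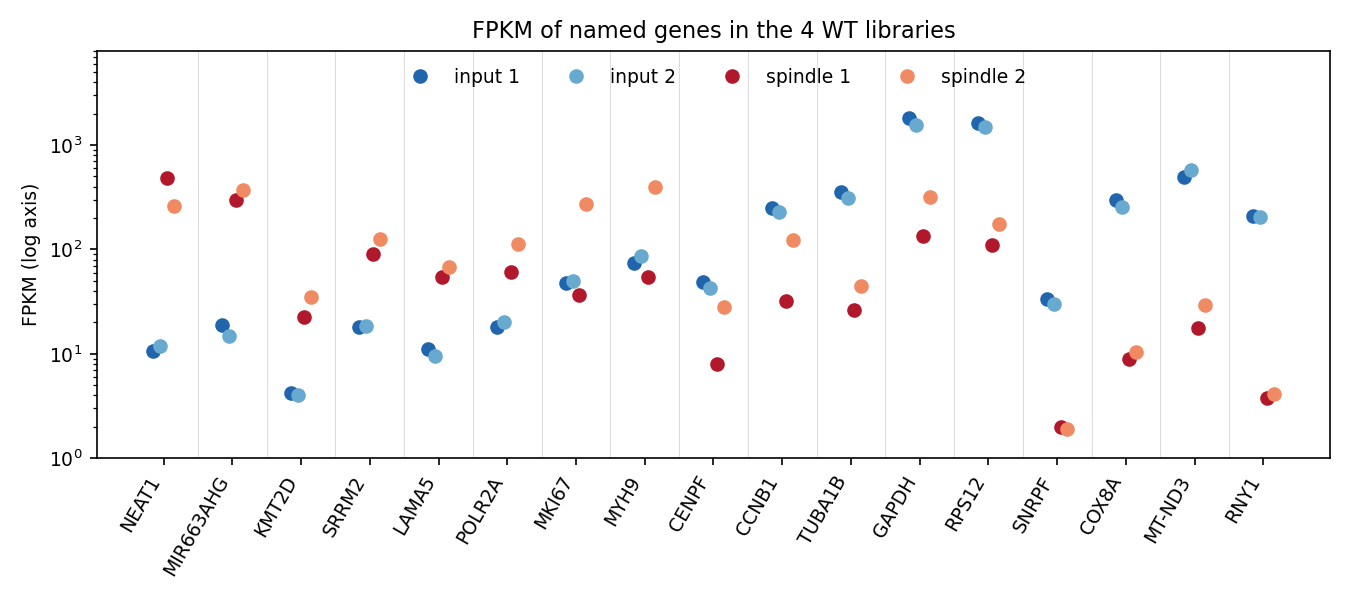
FPKM of 17 named genes in the 4 WT libraries, on a log axis, with 1 point per library. NEAT1, MIR663AHG, KMT2D, SRRM2, LAMA5 and POLR2A lie higher in both spindle libraries, MKI67 and MYH9 lie above input only in spindle 2 (272 and 393), and the genes from CENPF rightwards lie lower in both.

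Messages of the protein synthesis machinery lay low in both spindle libraries. Of the 84 genes for proteins of the cytosolic ribosome, 77 fell and 0 rose, and 82 had both spindle libraries below both inputs. Their medians were -2.91 in spindle 1 and -2.26 in spindle 2, against -0.08 and -0.07 for all tested genes. RPS12 had an FPKM of 1637 and 1486 in input, and 110 and 177 in spindles (log2 change -3.48, SE 0.49, limma adjusted p = 0.00900). RPL41, whose coding sequence of 78 nt is the shortest in the list, had 883 and 755 in input, and 76.5 and 138 in spindles. Of 75 mitochondrial ribosomal protein genes 64 fell and 1 rose, with MRPL11 at 52.7 and 43.9 in input, and 3.97 and 5.83 in spindles. Among 49 translation factors 27 fell and 1 rose. EEF1B2, which recharges the elongation factor eEF1A, fell from 392 and 352 to 30.9 and 47.9, and EIF2S1, of the initiation factor that brings the first tRNA, from 51.0 and 50.5 to 5.13 and 7.90. The long EIF4G1 (4821 nt), a scaffold of the cap-binding complex, had 97.6 and 101 in input, 81.2 in spindle 1 and 174 in spindle 2, on opposite sides of input (limma adjusted p = 0.655). Of 20 aminoacyl-tRNA synthetase genes 9 fell and none rose (median -0.92, or 0.05 with equal coding sums).

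Ribosomal protein messages and some other messages of translation begin with a terminal oligopyrimidine tract, a run of pyrimidines starting with C through which the kinase mTOR controls their translation. A run of at least 6 pyrimidines (C or T) that begins with C within 4 bases of the annotated start, read on the gene's own strand, was looked for in RefSeq promoters (GRCh38.p14). It was present in 3498 of 35116 promoters (9.96%). Of the tested coding genes 9285 (81.7%) could be matched, and 15.3% of them held it, against 54 of 68 matched ribosomal protein genes. Windows of 20 bases around the start, with the run in capitals, show it in genes that fell by 2.45 to 3.60 on the log2 scale:
RPS12: aggCCTCTTTCCCTgccgcc
RPL35A: cgtCCTTCTCTTaccgccat
RPS6: ggCCCTCTTTTCCgtggcgc
RPL41: CTTTCTCTCggccttagcgc
TPT1: cggCCTTTTCCgcccgctcc
EEF1A1: cgttCTTTTTCgcaacgggt
Single genes with and without the run moved either way. EP400 rose and has it, EEF2 has it and did not pass (876 and 824 in input, 294 and 778 in spindles, limma adjusted p = 0.354), and COX8A and GAPDH fell without it:
EP400: CTTCCTCCCgccggggcccc
EEF2: cgttCTCTTCCgccgtcgtc
COX8A: agccattttggcttcctgac
GAPDH: ccctgtccggatgctgcgcc
Within the ribosomal protein list the median change was -2.60 with the run (54 genes) and -2.12 without it (14 genes), and among translation factors it was -1.43 (12 genes) and -0.91 (28 genes). Outside both lists, the median change was -0.29 with the run (1358 genes) and -0.33 without it (7819 genes). Within the shortest quintile of coding length these values were -1.19 and -1.23, and in the longest 0.45 and 0.37.

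Most lists of energy metabolism, protein turnover and folding also lay low. Of 79 nuclear-encoded genes of the respiratory chain 72 fell and none rose, with medians of -2.478 and -2.003. ATP5E, a subunit of ATP synthase, fell from 41.0 and 38.0 to 4.21 and 6.41. Of 18 glycolytic genes 9 fell and none rose, with medians of -1.60 in spindle 1 and -0.75 in spindle 2. GAPDH had 1831 and 1563 in input, 135 in spindle 1 and 316 in spindle 2 (log2 change -3.03, SE 0.63, limma adjusted p = 0.0207). Of 36 proteasome genes 27 fell and none rose, with PSMB6 at 134 and 119 in input, and 13.0 and 19.1 in spindles. All 8 genes of the cytosolic chaperonin TRiC, which folds tubulin and actin, had both spindle libraries below both inputs, and 7 fell. TCP1 was among them, with 191 and 175 in input, and 23.2 and 40.6 in spindles. Heat shock chaperones differed between the spindle libraries, with 8 of 20 lower (against 34.6% of coding genes), none higher, and medians of -2.05 and -0.65.

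Messages translated at the endoplasmic reticulum followed their length as well. Of 42 genes of chaperones and of the translocon 30 fell and 1 rose. The small translocon subunit SEC61G fell from 29.8 and 36.4 to 3.86 and 2.39. In transport from the reticulum to the Golgi 19 of 30 fell and 1 rose. That gene was SEC16A, a long scaffold of exit sites (7074 nt), at 8.23 and 7.74 in input, and 19.4 and 24.8 in spindles (log2 change 1.35, SE 0.19, limma adjusted p = 0.00904). ARF4, a small GTPase of the same route (543 nt), fell from 42.1 and 38.7 to 8.60 and 8.38.

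The spindle libraries disagreed on RNAs encoded by mitochondrial DNA. Of 36 tested, 8 (22.2%) fell and 3 (8.33%) rose, against 27.4% and 21.2% of all genes. The medians of these 36 were -1.57 in spindle 1 and 0.09 in spindle 2. The 13 messages among them had 6 lower and none higher, with medians of -2.30 and -0.76. MT-ND3, a subunit of complex I, had 492 and 577 in input, and 17.7 and 29.4 in spindles (log2 change -4.49, SE 0.36, limma adjusted p = 0.00551). MT-CO3 of complex IV had 2218 and 2253 in input, 123 in spindle 1 and 493 in spindle 2. The ribosomal RNA MT-RNR2 had 74.0 and 92.3 in input, 18.7 in spindle 1 and 202 in spindle 2, and MT-RNR1 had 127 and 152, then 9.68 and 169. So the mitochondrial ribosomal RNAs stood below input in spindle 1 and above it in spindle 2, and neither passed (limma adjusted p = 0.790 and 0.338). The tRNA gene MT-TS1 rose from 18.4 and 16.1 to 86.5 and 181, and MT-TM fell from 22.1 and 22.3 to 6.27 and 3.40, with 28 reads in both inputs together and 4 in both spindles.

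**Figure D4:**
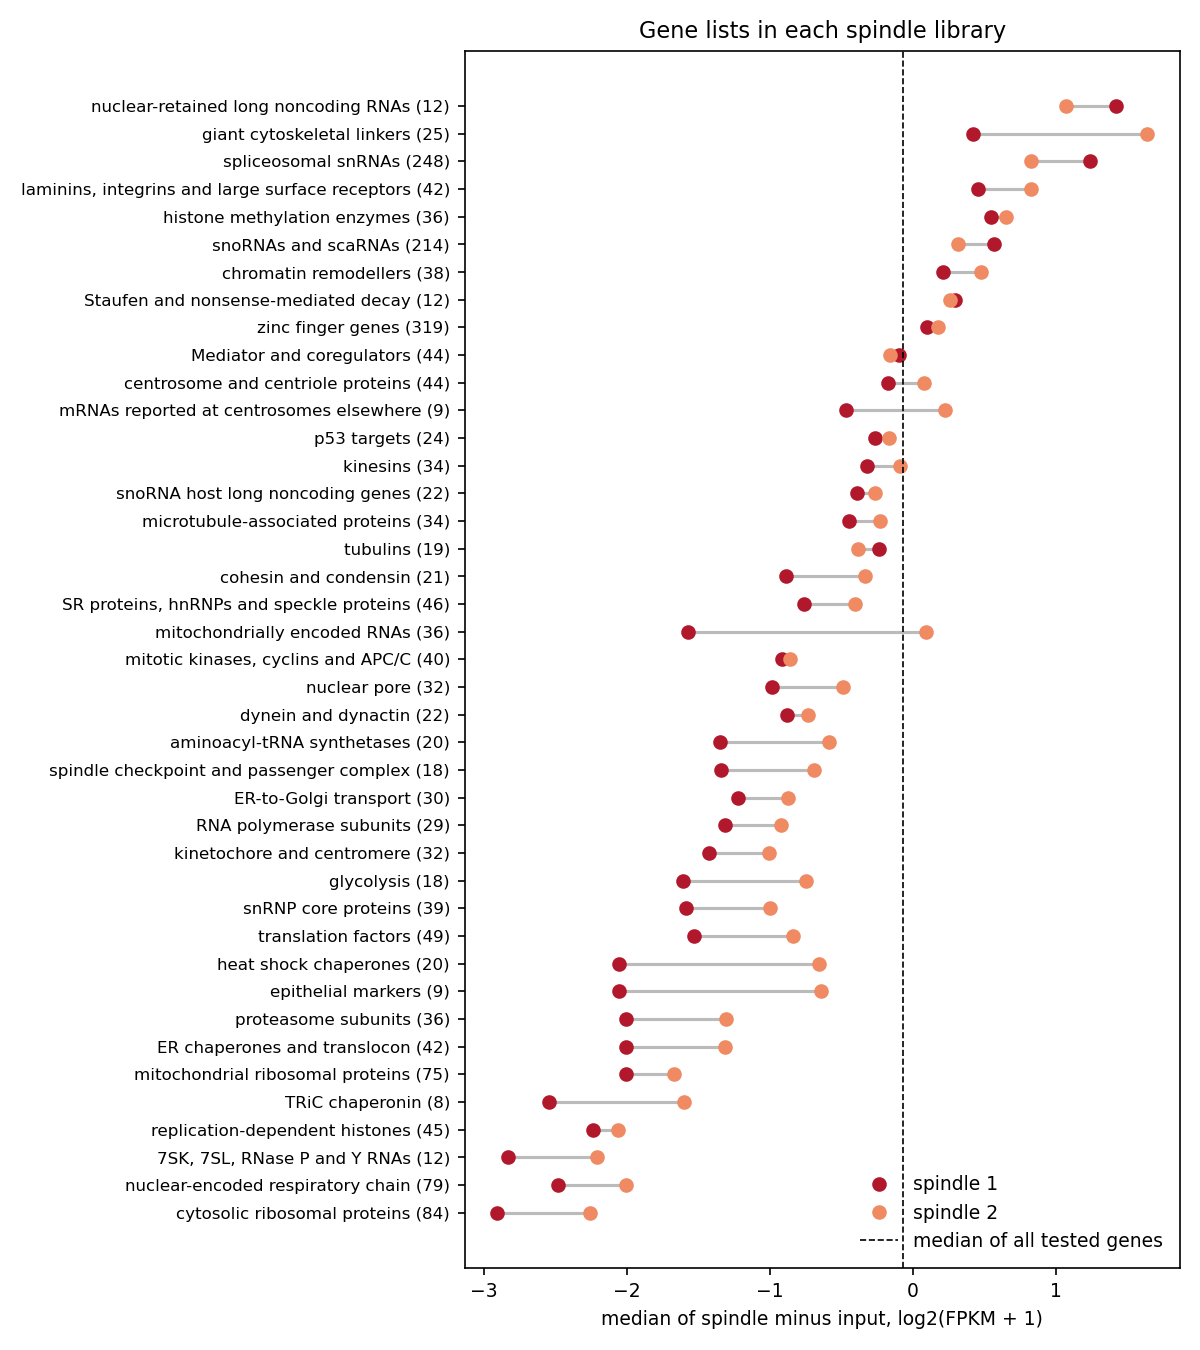
Median change of each gene list (log2(FPKM + 1), spindle minus the mean of inputs) in spindle 1 and spindle 2, with the number of tested genes in brackets. The dashed line marks the median of all tested genes (-0.07), and mitochondrially encoded RNAs (-1.57 and 0.09) and giant cytoskeletal linkers (0.42 and 1.64) show wide gaps between the libraries.

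Among chromatin genes, histones and the enzymes that act on them lay on opposite sides. Of 45 replication-dependent histone genes 42 fell and 1 rose, with medians of -2.23 and -2.06. Of 36 enzymes that write or erase histone methylation 16 rose and 3 fell, with medians of 0.55 and 0.65. KMT2C (14907 nt) rose from 3.67 and 3.71 to 14.4 and 13.8, and SETD1B from 1.93 and 1.81 to 8.42 and 11.8. The short SUV39H2 (1233 nt) fell from 9.27 and 9.92 to 4.50 and 4.61. Of 38 chromatin remodelling genes 13 rose and 4 fell. EP400 and SRCAP, the motor subunits of related remodelling complexes, rose from 3.27 and 3.99 to 21.5 and 29.7, and from 6.13 and 6.08 to 21.7 and 29.6. ACTL6A, a small subunit that works in the same kind of complex (1290 nt), fell from 23.8 and 22.1 to 4.95 and 4.53. ARID1A of the BAF complex rose from 6.42 and 6.55 to 20.7 and 22.9.

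Single complexes of transcription and RNA processing held genes that moved both ways. In the Mediator and coregulator list 12 (27.3%) of 44 rose and 17 (38.6%) fell, against 14.3% and 34.6% of all coding genes. MED12 (6543 nt) rose from 4.03 and 4.65 to 12.3 and 11.9, while MED30 (537 nt) fell from 18.4 and 15.6 to 1.58 and 2.57. The corepressor NCOR1 and the acetyltransferase CREBBP, both over 5000 nt, rose by 1.38 and 1.50 (SE 0.15 and 0.20, limma adjusted p = 0.00620 and 0.00777). Of 29 RNA polymerase genes 18 fell and 2 rose. POLR2A (5913 nt), the catalytic subunit of RNA polymerase II, rose from 18.0 and 20.1 to 60.2 and 114 (log2 change 2.07, SE 0.36, limma adjusted p = 0.0140), and POLR2K (204 nt) fell from 40.4 and 44.3 to 3.24 and 4.06. Of 39 snRNP protein genes 24 fell and none rose, with SNRPF at 33.9 and 30.0 in input, and 2.01 and 1.90 in spindles. Of 32 nuclear pore genes 15 fell and 3 rose (median -0.77, or 0.17 with equal coding sums). NUP214 (6276 nt) rose from 4.29 and 4.10 to 10.2 and 11.5, and NUP37 (981 nt) fell from 38.4 and 38.2 to 5.14 and 9.14. Of 46 SR, hnRNP and speckle protein genes 18 (39.1%) fell and 2 (4.35%) rose (median -0.55, or 0.44 with equal coding sums). The share that fell was near the 34.6% of all coding genes.

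The same ordering was met inside most lists. In 31 lists of at least 15 coding genes, Spearman's rho of change with coding length was above 0 in all 31 and ranged from 0.17 (34 kinesins) to 0.86 (30 genes of transport between reticulum and Golgi). Some genes stand in more than 1 list, and the lists share the 4 libraries. The longer members of a list had the higher median in 29 of 31. The exceptions were the histones (-2.24 against -2.19) and the giant cytoskeletal linkers (0.96 against 1.06). For chromatin remodellers the medians were 0.78 among the longer members and -0.59 among the shorter, and for Mediator and coregulators 0.69 and -0.88.

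Messages of the spindle itself lay mostly low. Of 32 kinetochore and centromere genes 23 fell and none rose, with medians of -1.43 and -1.01. CENPA, the histone variant that marks centromeres, fell from 20.3 and 20.2 to 4.16 and 4.90, and SKA1, which couples kinetochores to microtubules, from 16.2 and 14.8 to 1.83 and 2.12. The long kinetochore genes CENPE (8106 nt) and CENPF (9345 nt) did not pass. CENPE had 11.2 and 10.1 in input, and 5.81 and 9.02 in spindles. CENPF had 49.0 and 42.4 in input, 8.08 in spindle 1 and 27.8 in spindle 2 (limma adjusted p = 0.0915). Of 18 checkpoint and passenger complex genes 10 fell and 1 rose, with MAD2L1 falling from 27.9 and 25.8 to 2.55 and 2.74. Of 40 genes of mitotic kinases, cyclins and the anaphase-promoting complex 22 fell and 4 rose (median -0.75, or 0.13 with equal coding sums). AURKA, a kinase of the spindle poles, fell from 80.9 and 72.2 to 7.86 and 17.1, and CCNA2 (cyclin A2) from 72.5 and 66.8 to 7.47 and 12.5. AURKB, the kinase of the passenger complex, had 27.7 and 24.7 in input, and 13.0 and 19.9 in spindles (limma adjusted p = 0.0921).

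Tubulins and motors were mixed. Of 19 genes in the tubulin list 6 (31.6%) fell and 3 (15.8%) rose (median -0.41, or 0.40 with equal coding sums). These shares were near the 34.6% and 14.3% of all coding genes. The alpha-tubulin gene TUBA1B had 353 and 312 in input, and 26.6 and 44.7 in spindles (log2 change -3.23, SE 0.36, limma adjusted p = 0.00630), and the beta-tubulin gene TUBB had 264 and 269, then 57.8 and 112. The gamma-tubulin gene TUBG2 rose from 4.12 and 3.35 to 15.4 and 9.10, and TUBGCP6, of the ring complex that starts microtubules, from 8.22 and 7.74 to 18.2 and 19.7. Of 34 kinesins 7 (20.6%) rose and 5 (14.7%) fell (median -0.21, but 0.16 at matched upper quartiles and 0.53 at matched coding sums). KIF16B, a motor of endosomes, rose from 3.26 and 3.19 to 8.74 and 8.07. KIF11, the motor that separates spindle poles, fell from 20.3 and 20.4 to 10.0 and 11.5, a change of -0.86 that was 0.08 with equal coding sums. Of 22 dynein and dynactin genes 12 fell and none rose (median -0.80, or 0.11 with equal coding sums). The heavy chain gene DYNC1H1 (13941 nt) had 41.6 and 49.7 in input, and 66.9 and 158 in spindles (log2 change 1.16, SE 0.47, limma adjusted p = 0.105), while the light chain gene DYNLL1 (270 nt) fell from 30.9 and 28.2 to 5.67 and 10.0.

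Messages of centrosome proteins were close to the median of all genes as a list. Of 44, 8 rose and 11 fell, and the median was 0.03 below that of all genes as scaled by the authors and 0.07 above it with equal coding sums. NINL rose from 1.94 and 1.73 to 6.20 and 5.43, and CEP164, of the appendages that anchor cilia, from 3.59 and 3.70 to 8.37 and 9.12. NEDD1, which recruits gamma-tubulin, fell from 13.9 and 13.7 to 4.40 and 5.39, and CETN2 (centrin, 519 nt) from 9.76 and 12.6 to 0.884 and 3.24. Of 9 messages reported at centrosomes in other work, 1 (11.1%) rose and none fell. PCNT, the pericentrin gene, was that gene, with 8.70 and 9.27 in input, 22.5 in spindle 1 and 47.9 in spindle 2 (log2 change 1.76, SE 0.39, limma adjusted p = 0.0236). CCDC88C had 2.81 and 3.03 in input, 4.52 in spindle 1 and 12.4 in spindle 2, and NUMA1, of the spindle poles, had 17.0 and 17.2, then 19.7 and 33.0. ASPM (13.7 and 13.0, then 11.3 and 12.5) lay near input. BICD2 (14.3 and 16.0, then 10.7 and 18.3), NIN, CEP350 and TPR stood below input in spindle 1 and above the input mean in spindle 2. HMMR had 35.1 and 36.4 in input, 4.59 in spindle 1 and 16.8 in spindle 2 (limma adjusted p = 0.0537).

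Long messages of the cytoskeleton and cell surface lay high, though to different degrees in the spindle libraries. Of 25 giant cytoskeletal linkers (median coding length 7629 nt) 9 (36.0%) rose and none fell, and 18 had both spindle libraries above both inputs. Of all coding genes 14.3% rose, and of the 493 with more than 5000 nt of coding sequence 50.9% rose. AHNAK2 rose from 4.81 and 4.70 to 32.5 and 25.9. PLEC (plectin, 14055 nt) rose from 38.6 and 50.7 to 103 in spindle 1 and 291 in spindle 2 (log2 change 1.94, SE 0.57, limma adjusted p = 0.0471), and MACF1, which links actin to microtubules, from 7.36 and 7.43 to 14.0 and 25.1. Of 42 genes of laminins, integrins and large surface receptors (median coding length 5415 nt) 20 (47.6%) rose and 5 (11.9%) fell. The share that rose in either list was thus not above that of long coding genes at large. The endocytic receptor LRP1 (13635 nt) rose from 0.604 and 0.582 to 5.52 and 4.80, but it had passed the filter only through the spindle libraries. Perlecan (HSPG2) rose from 2.38 and 3.54 to 14.3 and 18.5, and NOTCH1 from 6.31 and 5.49 to 19.4 and 29.7.

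Of 12 genes of Staufen and of nonsense-mediated decay, the surveillance of messages with early stop codons, 4 rose and 1 fell. The kinase gene SMG1 (10989 nt) rose from 11.6 and 12.7 to 31.1 and 31.4. STAU1, the gene edited in the knockout cells of the series, was the member that fell, from 31.9 and 28.5 to 11.5 and 16.2 (log2 change -1.09, SE 0.23, limma adjusted p = 0.0215), and its change was -0.13 once coding sums were matched. Of 319 zinc finger genes 51 rose and 29 fell, with ZNF276 rising from 5.37 and 4.68 to 19.1 and 20.0 and ZNF664 falling from 26.8 and 28.5 to 7.78 and 7.37. Of 24 p53 target genes 3 rose and 6 fell. Their median was -0.18, or 0.25 at matched upper quartiles and 0.74 at matched coding sums.

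The 2 spindle libraries differed from each other in 1 direction for coding genes. Of 6980 coding genes with a mean FPKM of at least 5, 566 stood more than 1 log2 unit higher in spindle 2 than in spindle 1, and 14 the reverse. The 566 had medians of -1.73 in spindle 1 and -0.48 in spindle 2, and a median input FPKM of 41.5. MKI67, the proliferation marker that coats mitotic chromosomes, had 47.4 and 49.5 in input, 36.4 in spindle 1 and 272 in spindle 2. MYH9, the heavy chain of nonmuscle myosin that drives cytokinesis, had 73.6 and 86.5 in input, 54.8 in spindle 1 and 393 in spindle 2. For both genes spindle 1 lay below both inputs and spindle 2 far above them, and neither passed (limma adjusted p = 0.422 and 0.492). The 2 spindle libraries of STAU1-knockout cells stood at 123 and 107 for MKI67 and at 92.9 and 94.0 for MYH9, between the WT libraries. These differences were chosen by their size and are given without a test.

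Other genes with such gaps were picked after their values were seen. The junction protein DSP (desmoplakin) had 32.5 and 35.4 in input, 21.6 in spindle 1 and 99.5 in spindle 2, and MYH10 had 12.2 and 11.3, then 10.97 and 57.3. The passenger complex gene INCENP had 18.6 and 22.0 in input, 12.1 in spindle 1 and 46.4 in spindle 2. In contrast, CCNB1 (cyclin B1), TPX2, which nucleates spindle microtubules, and HSP90AA1 lay below input in both spindle libraries but by different amounts. CCNB1 had 247 and 230 in input, 32.4 in spindle 1 and 124 in spindle 2, and TPX2 had 119 and 116, then 25.5 and 98.0. HSP90AA1 had 690 and 619 in input, 94.9 in spindle 1 and 551 in spindle 2. None of these 6 passed the test (limma adjusted p from 0.0811 for CCNB1 to 0.784 for INCENP). Among short RNAs the gap ran both ways: RNU5F-1 had 302 in spindle 1 and 17.8 in spindle 2 against 26.7 and 31.9 in input, and MIR200A had 0 and 20.6 from 0 and 8 reads. Ribosomal RNA held 13.6% of reads in spindle 1 and 46.3% in spindle 2, and its part in these gaps was not tested.

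**Figure D5:**
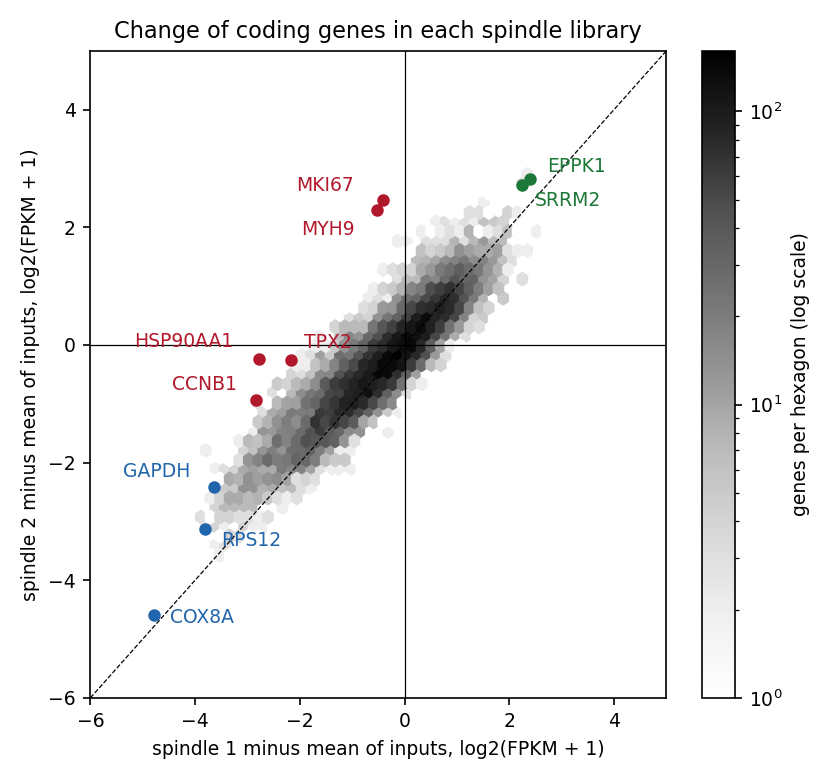
Change of each of 11368 coding genes in spindle 1 (x axis) and spindle 2 (y axis), on the log2(FPKM + 1) scale against the mean of inputs, with shading for the number of genes. The cloud follows the dashed line of equality, and MKI67, MYH9, HSP90AA1, CCNB1 and TPX2 lie above it.

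By chromosome, coding medians ran from -0.02 (chromosome 22) and -0.05 (chromosome 19) to -0.50 (chromosome 5), and the 13 mitochondrially encoded messages had -1.57. In the authors' deposited table of the same comparison, which has an adjusted p for 15496 of the tested genes, 3619 were higher and 5136 lower. Of the genes called here, 2705 higher and 4194 lower ones were called in the same direction there, and 0 in the opposite one.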

How the data were processed

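RNA-seq of 2 WT spindle and 2 WT input libraries was used. The authors deposited FPKM values scaled between libraries, with gene lengths and GC content in percent. Per the submitters' processing notes, FastQC, TopHat, featureCounts and DESeq2 were used with GRCh37, in versions not given in the sources used here. Genes with an FPKM of at least 1 in at least 2 of the 4 libraries were tested on log2(FPKM + 1) with limma 3.58.1 (R 4.3.3; trended prior, two-sided, Benjamini-Hochberg adjustment, calls at adjusted p under 0.05). A fold change on this scale understates the change of low genes. The authors' deposited comparison table gave base mean signal, log2 fold changes and adjusted p-values. With the base mean, FPKM values converted to whole reads within 0.01 in 100% of cases, which gave depth. Counting error is larger for the shallower spindle libraries, and intervals were not computed. Summaries used Python 3.11.15, pandas 2.3.3 and numpy 2.4.6, and figures matplotlib 3.10.9. The test was checked on simulated data. The labels do not say that a replicate number marks a shared culture, so no pairing was used. Deviations of same-numbered libraries had a correlation of -0.04 over 15904 genes. A value over all genes cannot show that pairing is absent, since single genes can follow the number. LCN2 did so, with an FPKM of 1.12 and 13.5 in input, and 0.898 and 12.3 in spindles.

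Members and lists were chosen with earlier results of these data known. The naming rule took STAU1, in each direction the called genes of largest change (12 coding, 6 not) (mean FPKM of at least 5, groups not overlapping), up to 4 genes of each list and up to 2 called genes of each class and direction by smallest p, and the 8 genes with the largest gap between spindle libraries in each direction. It gave 213 genes, of which 126 were considered in the text and 87 were left out for length. A further 76 were chosen after their values were seen. Alternatives were other pseudocounts (0.1 and 5), filters, scalings, fits and single libraries left out. Sequences are from RefSeq (GRCh38.p14), and 311 of 480 tested miRNA genes had an entry. A few items are not reported here.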

Additional observations from a re-analysis of the deposited data

Results flagged for a closer look

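For 9 of the 202 genes considered by name the spindle-to-input change differed between WT and STAU1-knockout cells by the interaction term of a limma fit over all 8 libraries, in which 92 of all 15904 genes had a higher and 15 a lower change in knockout cells. In each of the 9 the change was higher in knockout cells. The 202 genes were considered by name mostly because of their WT values or with those values known, and all 9 had fallen in WT spindles. The number of the 9 and their shared direction therefore depend on that choice and are not a test. NDUFA1, a subunit of complex I, had a change of -3.92 in WT and -1.58 in knockout cells, a difference of 2.34 (limma adjusted p = 0.0466). For COX7A2, a subunit of complex IV, the changes were -4.06 and -2.26 and the difference 1.80. The snRNP genes SNRPF and SNRPG differed by 1.53 and 1.44, the pseudogene RPL9P7 by 1.56, and the initiation factor gene EIF3E by 1.43. The checkpoint gene MAD2L1 differed by 1.27 and the GTPase gene ARF4 by 1.24. The adjusted p of these 7 genes lay between 0.0448 and 0.0478. STAU1 itself differed by 2.01 (limma adjusted p = 0.0466), with an FPKM of 4.58 and 4.88 in knockout input and 9.83 in both knockout spindle libraries. STAU1 is the gene edited in the knockout cells, and its values there come from the reads that remain.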

How the results depend on the processing

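Counts of higher and lower genes (3370 and 4359) moved by over 1.5 times in these settings. With a mean FPKM of at least 5, 1191 of 7849 genes were higher, and 838 of 6980 coding genes. Fewer genes were tested there than the 15904 (11368 coding) of the main fit, which lowers the counts. Equal upper quartiles gave 5120 higher genes, with 2915 coding genes higher and 2602 lower. Equal coding sums gave 6675 higher and 1528 lower genes, with 4143 coding genes higher and 1313 lower. A fit of all 8 libraries called 2503 coding genes higher. Leaving out 1 library at a time gave 0 to 3601 higher and 0 to 5310 lower genes, and 0 to 1933 and 0 to 4808 among coding genes, with 0 in each case when an input library was left out. That fit has 1 residual degree of freedom and assumes that the lone library varies like the other group. With the replicate number as a block, 3234 genes were higher and 3974 lower, and of the 152 called genes among the 202 considered by name 7 lost their call.

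Without spindle 2 the direction turned for 11 of the 202 genes and without spindle 1 for 12, and none of these 23 had passed. For 10 genes the direction turned in some setting and the value passed either as reported or in that setting. With equal coding sums the changes were 0.77 for ASPM, 0.83 for BICD2, 0.77 for CEP350, 0.91 for ELF3 and 0.075 for KIF11. Without spindle 2 they were -0.80 for ACTN4, -0.63 for DSP, -0.40 for MKI67, 2.63 for MIR196A1 and -2.09 for MT-RNR2, and without spindle 1 they were 1.15, 1.53, 2.47, -2.03 and 1.28. The cause was not tested. With no trend in the prior variance, 8 of the 202 genes gained a call and none lost one. Shallow counts limit miRNA and snRNA genes most.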
